A study of Drosophila melanogaster with 6 samples.

Results

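Chromosome 4 of *Drosophila melanogaster* is the smallest of the fly's autosomes, and the 46 genes described here are its named genes in a fixed list of symbols. Every one of the 46 symbols had a row in the deposited table of 17807 genes. All libraries came from Δ*l(3)mbt* OSCs, a line of ovarian somatic cells that derives from the follicle cells of the fly ovary and that, per the labels, is knocked out for *l(3)mbt*. These cells received siRNA duplexes of 21 nt by nucleofection, directed against *ovo* in 3 libraries and against *renilla*, a luciferase gene that flies do not carry, in the other 3, and RNA was taken at 48 h. Treatment and control thus share the knockout, the line and the transfection, and no library of unmodified OSCs is compared here. The labels number the replicates, and the study describes them as coming from distinct samples without saying how those were kept apart, so p-values measure the spread between these 6 libraries.

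Most of chromosome 4 is packaged as heterochromatin, with the protein HP1a and methylated histone H3 spread across its genes, and yet those genes are transcribed. The protein encoded by *Pof* binds the transcribed genes of this chromosome and is known to raise their output, while the histone methyltransferase encoded by *egg* supplies much of the heterochromatin mark there. The genes include transcription factors of the Hedgehog and Wnt pathways, receptors for semaphorins, ligands of the TGF-β family and proteins of synapse and muscle. The product of *ovo* binds DNA through zinc fingers and is needed by female germ cells.

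The targeted gene was lower in the *ovo* siRNA libraries. *ovo* was counted at 961, 885 and 875 under *ovo* siRNA and 1300.02, 1590.4 and 1642 under *renilla* siRNA, so the groups did not overlap (log2 fold change -0.73 ± 0.13 (SE), limma adjusted p = 0.00862). Once the relation of level to GC content and length was taken out of each library (defined below), the change of *ovo* was -0.37 (limma adjusted p = 0.19). *l(3)mbt* was counted at 3399, 2718 and 2616 under *ovo* siRNA and 2748, 2586 and 1668 under *renilla* siRNA, and because the position of its deletion is not given in the sources used here, this count does not check the knockout.

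The reads behind the table were recovered as whole numbers and ran from 2759594 in *renilla* siRNA 3 to 21481506 in *ovo* siRNA 2, with 11337660 to 20099724 in the other 4. *renilla* siRNA 3 is thus much shallower than the rest. A count of 3 reads is worth 13.1 normalized counts there and 1.39 to 2.86 in the other libraries, and these floors cover counting error only. All 7 listed follicle cell markers were tested. *tj*, *zfh1*, *chinmo* and *mirr* fell and *fs(1)Yb* rose, against 14.1% and 11.8% of all tested genes. Once the relation to GC content and length was taken out, *tj*, *zfh1* and *mirr* fell and *fs(1)Yb* and *piwi* rose. *chinmo* was then at -0.19 (limma adjusted p = 0.458). The summed level of the 7 markers was 42697 to 52412 normalized counts under *ovo* siRNA and 64701 to 73002 under *renilla* siRNA. Of the 6 listed markers each for germ cells, neurons, muscle and hemocytes, 3, 2, 3 and 1 had enough reads to be tested. The germ cell sum was 3405 to 3681 against 2802 to 3565, the neuron sum 1617 to 1840.2 against 1721 to 2417, the muscle sum 101 to 119 against 87.6 to 126, and the hemocyte sum 434 to 654 against 285 to 549.9. The markers *osk*, *nSyb*, *Syt1*, *brp* and *Hml* had group means of at most 9.10. However, *vas* (2252 under *ovo* siRNA and 1963 under *renilla* siRNA), *bgcn* (1223 and 1243), *elav* (1693 and 2015) and *srp* (512 and 427) made up most of the germ cell, neuron and hemocyte sums. The neuron marker *para* fell (15.7 and 70.6, limma adjusted p = 0.00194), and the muscle marker *Mlc2* rose (27.6 and 11.9, limma adjusted p = 0.0308). Both kept these calls with GC content and length taken out, and *elav* rose there (0.86, limma adjusted p = 0.000702). No listed marker was at 0 in every library, and the part of these levels in the results below was not tested.

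Chromosome 4 genes are rich in A and T. The exons of the 46 genes had a median GC content of 37.6%, with a range from 30.9% in *Syt7* to 47.96% in *ey*, and a median summed length of 4588 bases. Among all tested genes the median GC content was 36.3% on chromosome 4 and 48.1% to 49.9% on the other chromosome arms. The starts of 4 coding sequences from genes of differing GC content show what that means at the level of bases. The first 120 coding bases are given in dm6 coordinates from the NCBI Release 6 sequence and the Ensembl annotation, read 5′ to 3′ on the coding strand, with each G and C in capitals.
*pan* (chr4:91214-91333, plus strand, 30.8% GC): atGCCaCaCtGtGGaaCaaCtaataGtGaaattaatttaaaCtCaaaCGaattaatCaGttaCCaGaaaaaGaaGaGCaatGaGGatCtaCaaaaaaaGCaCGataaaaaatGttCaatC
*PlexA* (chr4:1023352-1023471, minus strand, 38.3% GC): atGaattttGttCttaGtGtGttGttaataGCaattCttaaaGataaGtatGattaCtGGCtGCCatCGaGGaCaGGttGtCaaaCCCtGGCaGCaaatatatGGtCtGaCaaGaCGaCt
*Hcf* (chr4:360691-360810, plus strand, 42.5% GC): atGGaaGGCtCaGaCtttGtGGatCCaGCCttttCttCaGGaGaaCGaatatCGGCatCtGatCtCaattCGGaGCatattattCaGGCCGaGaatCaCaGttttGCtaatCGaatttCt
*lgs* (chr4:443274-443393, minus strand, 55.0% GC): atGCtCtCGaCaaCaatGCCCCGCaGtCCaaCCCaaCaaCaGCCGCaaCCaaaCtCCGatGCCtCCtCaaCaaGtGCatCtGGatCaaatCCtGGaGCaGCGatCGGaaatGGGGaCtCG
All 4 windows lie in a single coding exon. The whole exons of these genes had 33.7% GC in *pan*, 34.8% in *PlexA*, 38.7% in *Hcf* and 43.9% in *lgs*. The starts of *PlexA*, *Hcf* and *lgs* are thus richer in G and C than their exons as a whole, most so in *lgs*, and that of *pan* is poorer. The whole coding sequences had 40.1% GC in *pan*, 40% in *PlexA*, 44.5% in *Hcf* and 46.3% in *lgs*. Against those, only the start of *lgs* is richer.

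Levels of the 46 genes were spread over about 4 orders of magnitude per length of exon. Under *renilla* siRNA the highest was the small GTPase gene *Arf102F* at 1724 ± 546 normalized counts per kb (SD, n = 3), followed by the ubiquitin receptor gene *Rad23* at 1655 ± 66.8, the adaptor gene *Crk* at 1516 ± 230.4, the lipid kinase gene *PIP4K* at 1434 ± 126 and the translation factor gene *eIF4G1* at 1426 ± 285 per kb. Neighbours among these 5 did not differ beyond their spread, since in each pair the larger SD exceeds the gap between the means. *Arl4* (1139.98 ± 83.1 per kb), *Gyf* (849.6 ± 179.97 per kb) and *Ank* (752 ± 221 per kb) came next. In all, 27 genes reached 100 normalized counts per kb, and the median of the 38 tested genes was 354 per kb under *renilla* siRNA and 237 per kb under *ovo* siRNA. At the other end *dati*, the lowest tested gene, stood at 2.20 ± 0.58 per kb.

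**Figure D1:**
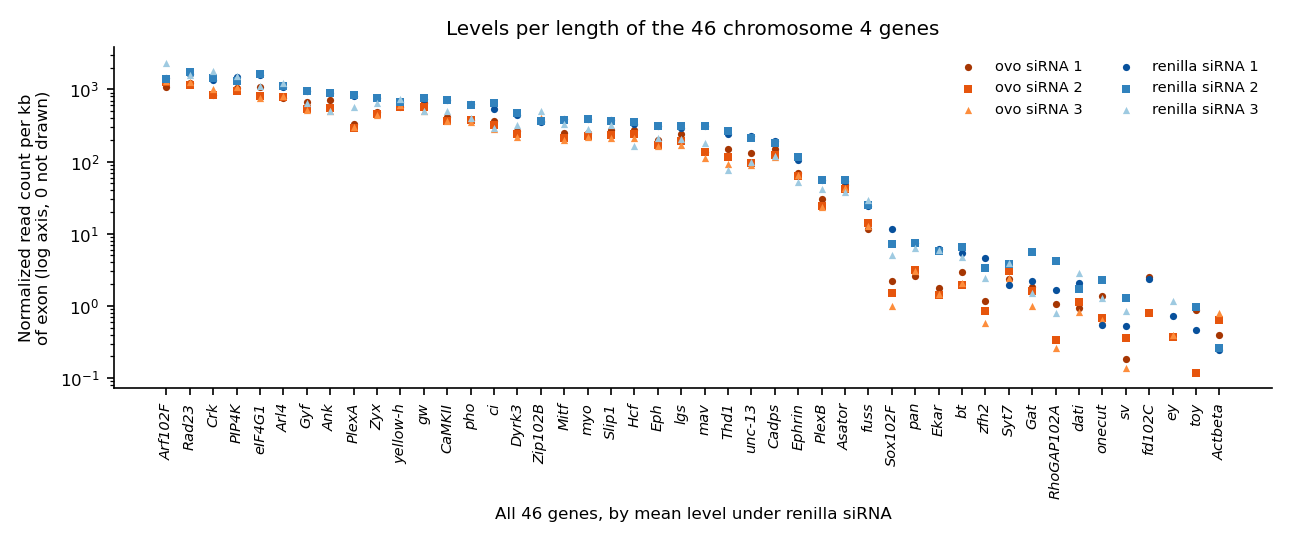
Normalized read count per kb of exon (log axis) of all 46 genes in each of the 6 libraries, ordered by the mean level under *renilla* siRNA. Levels ran from 1724 per kb for *Arf102F* to 0.17 per kb for *Actbeta* under *renilla* siRNA, and values of 0 are not drawn.

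8 genes did not reach 10 normalized counts in 3 libraries and were not tested: the eye and bristle selector genes *ey*, *toy* and *sv* (all of the Pax family), the forkhead gene *fd102C*, the homeobox gene *onecut*, the GABA transporter gene *Gat*, the gene *RhoGAP102A* and the activin-type ligand gene *Actbeta*. They held 0 to 24 reads in a library and 9 to 57 reads over all 6. At this depth no difference between the groups was detectable for them.

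On the deposited scale, each of the 38 tested genes of the list had a lower mean after *ovo* siRNA. All 38 had a negative log2 fold change (*ovo* siRNA over *renilla* siRNA, limma on log2 of the normalized count plus 1), with a median of -0.58 and a range from -2.16 to -0.11. 21 of the 38 fell at an adjusted p under 0.05 and 0 rose, against a background of 14.1% of all 7893 tested genes that fell and 11.8% that rose. At an unadjusted p under 0.05, 24 were lower and 0 higher, but the share of all genes at that threshold was not counted. edgeR on the recovered reads called 22 lower and 0 higher, against 15.8% of all genes lower, and DESeq2 24 and 0, against 18.9%. In 25 of the 38, every *ovo* siRNA library lay below every *renilla* siRNA library, which was so for 21.7% of all tested genes. The median log2 fold change of all tested genes was 0.04, and the medians of the arms 2L, 2R, 3L, 3R and X were 0.04, 0.04, 0.00, 0.08 and 0.09, against -0.61 for the 75 tested genes of chromosome 4. In bulk RNA, fewer cells of a type and less RNA per cell cannot be told apart.

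These counts depended on which libraries entered. Of the 21 genes that fell, 3 did so in each of the 6 fits that left out a library (*PlexA*, *pan* and *fuss*), 6 in 5 of them, 3 in 4, 6 in 2 and 3 in 1. Without *ovo* siRNA 1, 17 of the 38 fell, against 9.76% of all tested genes. Without *ovo* siRNA 2 it was 3, against 4.74%, and without *ovo* siRNA 3 it was 9, against 6.89%. Without *renilla* siRNA 1 it was 12, against 9.79%, and without *renilla* siRNA 2 it was 13, against 8.29%. Without the shallow *renilla* siRNA 3 the number was 33, against 25.6% of all tested genes that fell in that fit. 12 of the 17 genes that had not passed did so there.

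**Figure D2:**
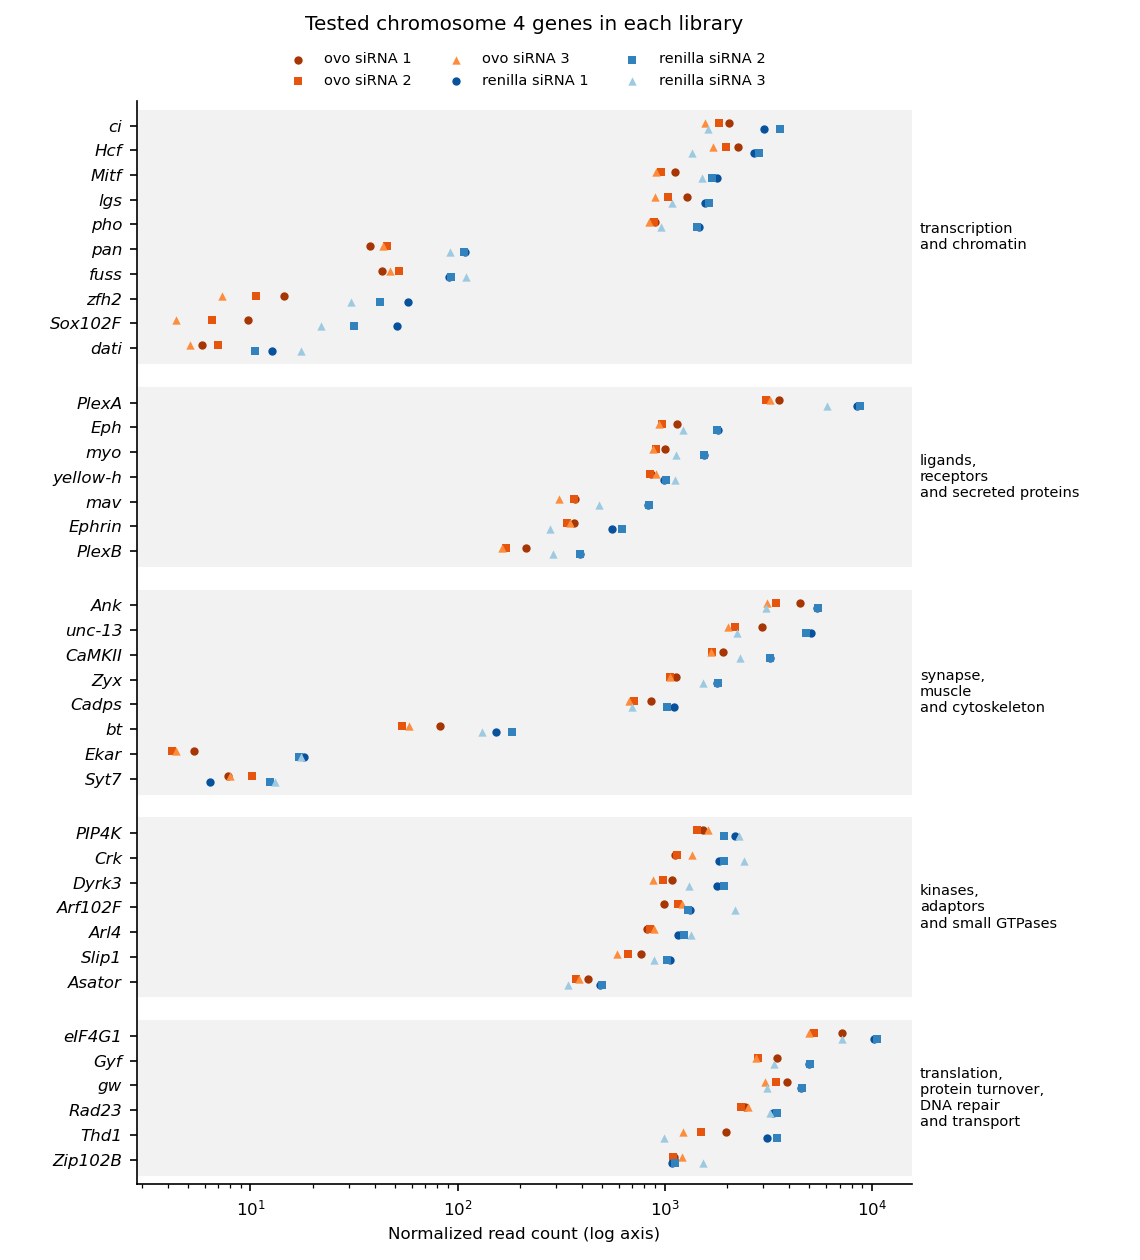
Normalized read count (log axis) of the 38 tested chromosome 4 genes in each library, grouped by role. In 25 genes the 3 *ovo* siRNA points all lie left of the 3 *renilla* siRNA points, and in 11 of the other 13 only *renilla* siRNA 3 lies among or left of the *ovo* siRNA points.

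The shift went together with base composition. Relative to the mean of the 6 libraries, the log2 level per 10 points of GC content had a slope of 0.26, 0.33 and 0.31 in the *ovo* siRNA libraries and of -0.23, -0.31 and -0.36 in the *renilla* siRNA libraries, with no overlap. GC-poor genes off chromosome 4 were lower as well. At 34% to 36% GC the median log2 fold change was -0.49 over 53 genes off chromosome 4 and -0.69 over 18 genes on it. At 36% to 38% it was -0.64 over 96 genes off and -0.66 over 14 on the chromosome, and at 38% to 40% it was -0.59 over 167 genes off and -0.49 over 12 on it. In the bins from 40% to 46% GC, which hold few of the listed genes, those lay lower than genes off the chromosome. Their median was -0.69 over 3 genes against -0.42 at 40% to 42%. It was -0.84 over 4 against -0.30 at 42% to 44%, and -0.80 over 2 against -0.17 at 44% to 46%. Over all tested chromosome 4 genes the medians of these bins were -0.50 over 4, -0.32 over 6 and -0.55 over 3 genes. At 46% to 48% the 1 chromosome 4 gene was at 0.38 against -0.03 off it, and at 48% to 50% at 0.53 against 0.07. At over 52% GC, where no tested chromosome 4 gene lies, the median off the chromosome was 0.36 over 1613 genes. Off chromosome 4, GC content and log2 fold change correlated across 7793 genes with a Pearson's r of 0.40 and a Spearman's rho of 0.45. Among the 38 genes here, which run from 30.9% to 44.5% GC, Pearson's r was -0.23 and Spearman's rho -0.087. Genes share their libraries and are not independent.

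**Figure D3:**
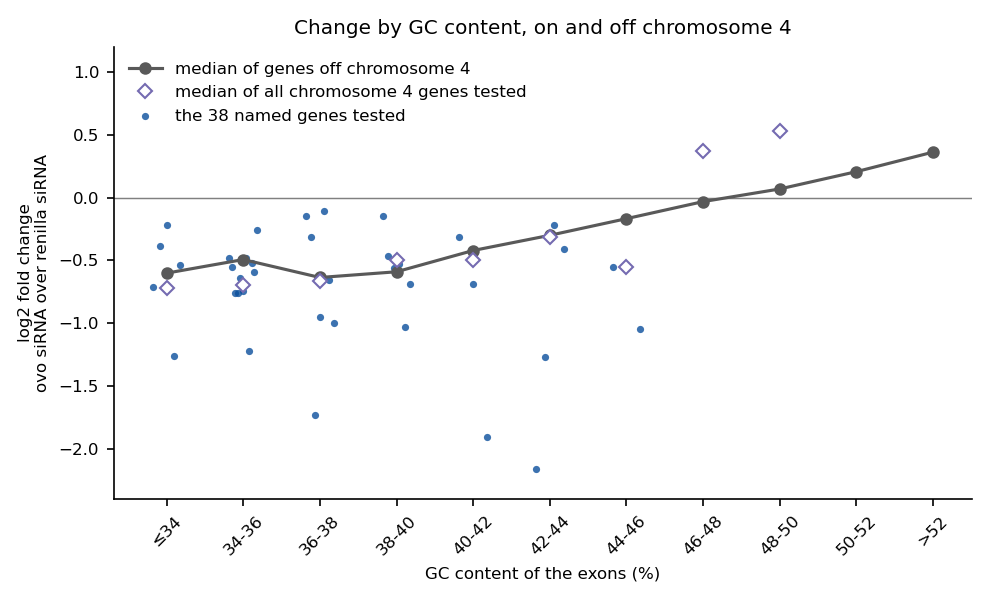
Log2 fold change (*ovo* siRNA over *renilla* siRNA) by GC content of the exons, as the median of genes off chromosome 4 (grey line), the median of all tested chromosome 4 genes (diamonds) and each of the 38 named genes (dots). Below 40% GC the diamonds lie between -0.72 and -0.49 and the grey line between -0.64 and -0.49. The dots furthest below the line, for *Sox102F* (42.8% GC) and *zfh2* (40.4% GC), stand in bins above 40% GC.

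**Figure D4:**
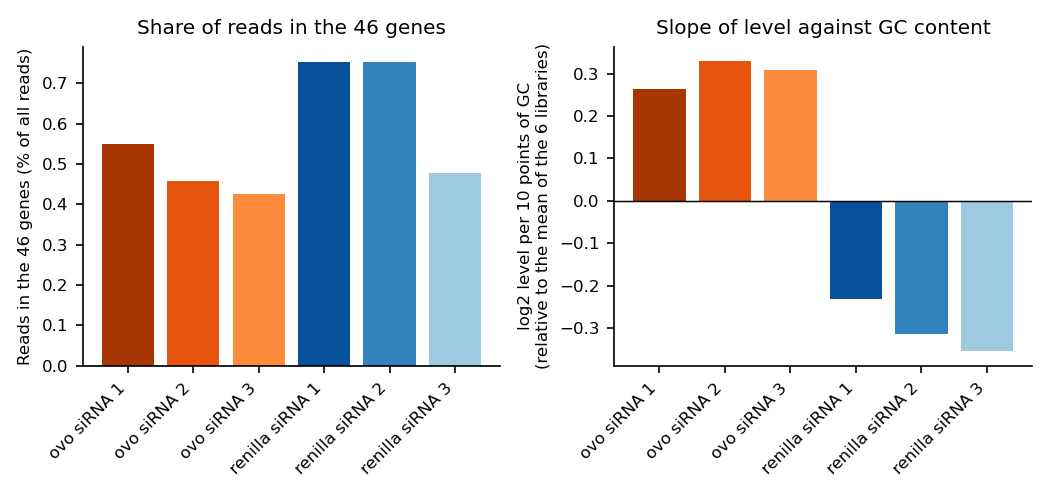
Share of reads in the 46 genes (left, % of all recovered reads) and slope of log2 level per 10 points of GC content relative to the mean of the libraries (right), one bar per library. The share was 0.55%, 0.46% and 0.43% under *ovo* siRNA and 0.75%, 0.75% and 0.48% under *renilla* siRNA, and the slopes are positive in the 3 *ovo* siRNA libraries and negative in the 3 *renilla* siRNA libraries.

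When the smooth relation of log2 level to exon GC content and exon length was subtracted from each library and the same test was run on 7868 genes, the 38 genes were no longer low. Their median log2 fold change was then 0.11, against 0.07 for all genes, with 25 values above 0 and 13 below. 10 rose, against a background of 16.3% of all genes, and 1 fell, against 12.3%. Fitting the relation without chromosome 4 genes gave the same counts, 10 and 1, and a median of 0.13. Without *renilla* siRNA 3 as well, 12 rose, against 27.9% of all genes, and 4 fell, against 18.5%. The siRNA and the GC slope differ between the same 3 and 3 libraries and cannot be told apart, so the genes below are given on both scales, the second called trend-removed.

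**Figure D5:**
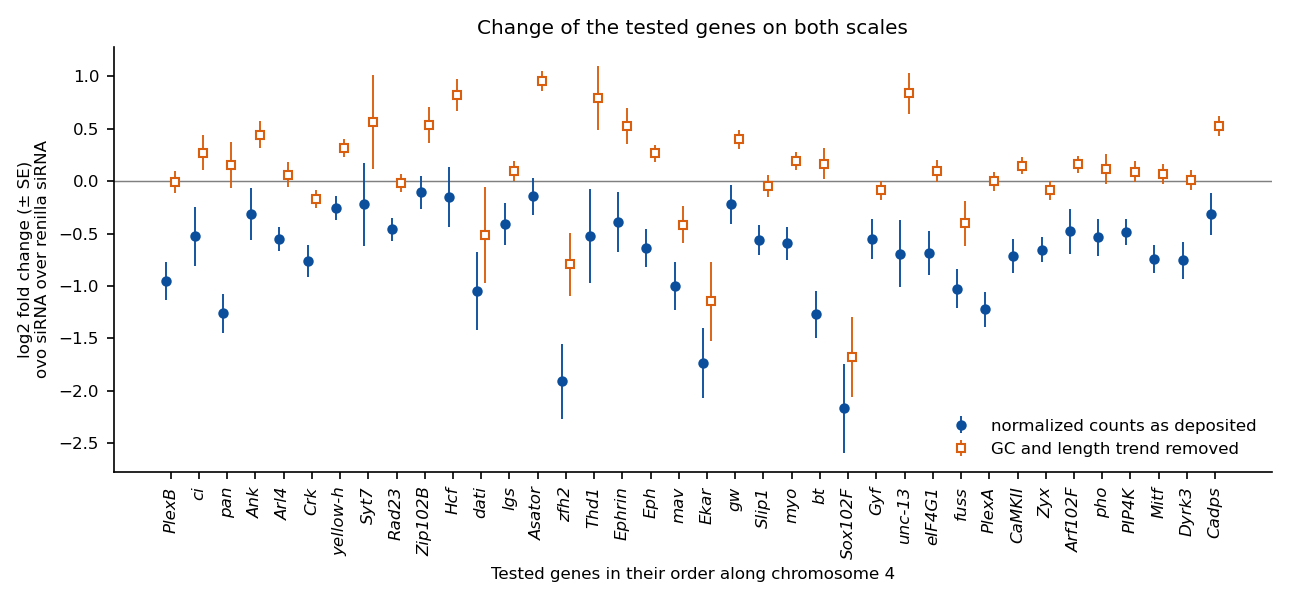
Log2 fold change ± SE (*ovo* siRNA over *renilla* siRNA) of the 38 tested genes in their order along chromosome 4, on the deposited scale (filled circles) and after the GC and length trend was taken out (open squares). All 38 circles lie below 0, whereas 25 squares lie above it, and *Sox102F*, *Ekar* and *zfh2* keep the lowest squares.

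The genes of transcription factors and chromatin proteins held the 2 largest falls, in *Sox102F* and *zfh2*. Of 10 tested, 5 fell and 0 rose, with a median log2 fold change of -0.89. Of all tested genes 14.1% fell and 11.8% rose, and of the 37 other tested chromosome 4 genes 43.2% fell and 2.7% rose. On the trend-removed scale 1 of the 10 fell and 1 rose, against 12.3% and 16.3% of all genes. *Sox102F*, which encodes an HMG-box factor of the SoxD family, was counted at 9.70, 6.50 and 4.35 under *ovo* siRNA and 51.02, 31.5 and 21.9 under *renilla* siRNA, from 6 to 20 reads per *ovo* siRNA library and 5 to 56 per *renilla* siRNA library. Each *ovo* siRNA value was below each *renilla* siRNA value, and the gene was 5.08-fold higher in the *renilla* siRNA mean (log2 fold change -2.16 ± 0.42 (SE), limma adjusted p = 0.011). It was the 1 gene that also fell on the trend-removed scale (-1.67 ± 0.38, limma adjusted p = 0.0134), a call that held in 4 of 6 fits without a library. *zfh2*, a zinc-finger homeodomain gene of wing and leg development, was counted at 14.6, 10.7 and 7.25 under *ovo* siRNA and 57.4, 42.003 and 30.7 under *renilla* siRNA. These values came from 30, 23 and 10 reads under *ovo* siRNA and 63, 44 and 7 reads under *renilla* siRNA. The groups did not overlap (log2 fold change -1.91 ± 0.36 (SE), limma adjusted p = 0.00974), and the trend-removed change was -0.79 ± 0.30 (limma adjusted p = 0.0786). Exons of *zfh2* share 18.7% of their length with *Thd1* on the opposite strand, which the strand-specific counting keeps apart.

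Of the Wnt and Hedgehog effectors, *pan* alone passed the test with all 6 libraries. It encodes the TCF factor of the Wnt pathway and was counted at 37.8, 45.5 and 43.5 under *ovo* siRNA and 108, 108 and 91.95 under *renilla* siRNA. The groups did not overlap (log2 fold change -1.26 ± 0.19 (SE), limma adjusted p = 0.00477), but the trend-removed change was 0.16 ± 0.22 (limma adjusted p = 0.622). *lgs*, whose product links the Wnt coactivator Armadillo to chromatin, had means of 1073 ± 198 and 1434 ± 303 (SD, n = 3, *ovo* and *renilla* siRNA), overlapped between groups and did not pass the test (log2 fold change -0.41 ± 0.20 (SE), limma adjusted p = 0.175). Its trend-removed change was 0.096 ± 0.093 (limma adjusted p = 0.463). *ci*, the Hedgehog pathway's transcription factor, was counted at 2057, 1828 and 1572 under *ovo* siRNA and 3014, 3602 and 1629 under *renilla* siRNA. *renilla* siRNA 3 lay among the *ovo* siRNA values, and the test was not passed (log2 fold change -0.53 ± 0.28 (SE), limma adjusted p = 0.205). Its trend-removed change was 0.27 ± 0.16 (limma adjusted p = 0.239). Without *renilla* siRNA 3 both passed, *ci* at -0.87 (limma adjusted p = 0.000467) and *lgs* at -0.60 (limma adjusted p = 0.005).

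Among the other regulators, *Mitf*, a gene of lysosome biogenesis, was counted at 1126, 965 and 907 under *ovo* siRNA and 1796, 1703 and 1519 under *renilla* siRNA and fell with no overlap (log2 fold change -0.75 ± 0.13 (SE), limma adjusted p = 0.00827). *fuss*, a member of the Ski/Sno family of corepressors, was counted at 43.2, 52.02 and 47.1 under *ovo* siRNA and 91.1, 92.6 and 109 under *renilla* siRNA and fell likewise (log2 fold change -1.03 ± 0.19 (SE), limma adjusted p = 0.00862). Both lost the call on the trend-removed scale, where *Mitf* was at 0.071 ± 0.095 (limma adjusted p = 0.605) and *fuss* at -0.40 ± 0.21 (limma adjusted p = 0.192). *Hcf*, a chromatin cofactor gene, showed the opposite order of calls. It was counted at 2271, 1977 and 1709.98 under *ovo* siRNA and 2700.2, 2867 and 1353 under *renilla* siRNA, with *renilla* siRNA 3 the lowest of all 6, and did not pass the test on the deposited scale (log2 fold change -0.15 ± 0.28 (SE), limma adjusted p = 0.729). On the trend-removed scale it rose (0.82 ± 0.15, limma adjusted p = 0.00648), and this held in all 6 fits without a library. *pho*, which encodes a DNA-binding Polycomb group protein, had means of 876 ± 30.96 and 1292 ± 285 (SD, n = 3, *ovo* and *renilla* siRNA) with no overlap and just missed the threshold (log2 fold change -0.53 ± 0.18 (SE), limma adjusted p = 0.0617). *dati*, a zinc-finger gene, had means of 5.95 ± 0.952 and 13.6 ± 3.58 (SD, n = 3, *ovo* and *renilla* siRNA) (log2 fold change -1.05 ± 0.37 (SE), limma adjusted p = 0.073). Trend-removed changes were 0.11 ± 0.14 (limma adjusted p = 0.585) for *pho*, and -0.52 ± 0.46 (limma adjusted p = 0.421) for *dati*.

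Ligands, receptors and secreted proteins gave 5 falls among 7 tested genes, with a median log2 fold change of -0.64. Of all tested genes 14.1% fell. On the trend-removed scale 0 of the 7 fell and 3 rose, against 12.3% and 16.3% of all genes. The largest of the 5 falls was that of *PlexA* (chr4:1009895-1027101, minus strand), a semaphorin receptor gene. It was counted at 3569, 3077 and 3213 under *ovo* siRNA and 8463, 8752 and 6069 under *renilla* siRNA. Even the lowest *renilla* siRNA value, in replicate 3, was above every *ovo* siRNA value, and the *renilla* siRNA mean was 2.36-fold higher (log2 fold change -1.22 ± 0.17 (SE), limma adjusted p = 0.00381). With the trend removed the change of *PlexA* was -0.00053 ± 0.092 (limma adjusted p = 0.998). *PlexB*, the other semaphorin receptor gene, was counted at 215, 172 and 164 under *ovo* siRNA and 391, 390.4 and 289 under *renilla* siRNA and fell with no overlap (log2 fold change -0.95 ± 0.18 (SE), limma adjusted p = 0.0103), with a trend-removed change of -0.011 ± 0.10 (limma adjusted p = 0.948).

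Of the TGF-β family ligand genes, *mav* and *myo* fell on the deposited scale, while *Actbeta*, with means of 2.23 under *ovo* siRNA and 0.62 under *renilla* siRNA from at most 5 reads in a library, was not tested. *mav* was counted at 371, 364 and 307 under *ovo* siRNA and 827, 838 and 482 under *renilla* siRNA (log2 fold change -1.001 ± 0.23 (SE), limma adjusted p = 0.0179). *renilla* siRNA 3 was the lowest of its group but above every *ovo* siRNA library. *myo* was counted at 1001, 909.9 and 877 under *ovo* siRNA and 1556, 1557 and 1129.7 under *renilla* siRNA, again without overlap (log2 fold change -0.59 ± 0.16 (SE), limma adjusted p = 0.0306), though its call held in only 1 of the 6 fits without a library. Trend-removed changes were -0.42 ± 0.18 (limma adjusted p = 0.111) for *mav*, and 0.19 ± 0.086 (limma adjusted p = 0.128) for *myo*. The receptor tyrosine kinase gene *Eph* was counted at 1143, 977 and 943 under *ovo* siRNA and 1813, 1799 and 1222 under *renilla* siRNA and fell (log2 fold change -0.64 ± 0.18 (SE), limma adjusted p = 0.037). The fall held in 1 of 6 fits without a library. On the trend-removed scale *Eph* rose (0.26 ± 0.084, limma adjusted p = 0.0455), the 1 gene whose call turned around, and this too held in 1 of 6 such fits. Its ligand gene *Ephrin* had means of 351 ± 15.01 and 486 ± 181 (SD, n = 3, *ovo* and *renilla* siRNA) that overlapped, without passing the test (log2 fold change -0.39 ± 0.28 (SE), limma adjusted p = 0.344), and rose with the trend removed (0.53 ± 0.17, limma adjusted p = 0.0472). That call held in 2 of 6 fits without a library. *yellow-h*, a secreted protein gene of the yellow family, had means of 873 ± 33.2 and 1044 ± 66.96 (SD, n = 3, *ovo* and *renilla* siRNA), did not overlap and missed the threshold (log2 fold change -0.26 ± 0.11 (SE), limma adjusted p = 0.137); its trend-removed change was 0.32 ± 0.086 (limma adjusted p = 0.0257). This rise held in 1 of 6 fits without a library.

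Of 8 tested genes of synapse, muscle and cytoskeleton, 4 fell, with a median log2 fold change of -0.67, against 14.1% of all tested genes. On the trend-removed scale 0 of the 8 fell and 3 rose, against 12.3% and 16.3% of all genes. *bt* encodes the giant muscle protein projectin and is the longest of the set at 28019 exonic bases. It was counted at 81.99, 53.9 and 58.01 under *ovo* siRNA and 153, 184 and 131 under *renilla* siRNA and fell with no overlap (log2 fold change -1.27 ± 0.22 (SE), limma adjusted p = 0.00791), while the trend-removed change was 0.17 ± 0.15 (limma adjusted p = 0.43). *Ekar*, a kainate-type glutamate receptor gene, was counted at 5.34, 4.18 and 4.35 under *ovo* siRNA and 18.2, 17.2 and 17.5 under *renilla* siRNA, from only 4 to 20 reads in a library. The groups did not overlap (log2 fold change -1.73 ± 0.33 (SE), limma adjusted p = 0.0105), and with the trend removed the gene lay at the edge of the threshold (-1.15 ± 0.38, limma adjusted p = 0.0505). *CaMKII*, the calcium- and calmodulin-dependent kinase gene, was counted at 1912, 1693 and 1677 under *ovo* siRNA and 3228, 3215 and 2312 under *renilla* siRNA, so all *ovo* siRNA values were the lower ones (log2 fold change -0.71 ± 0.16 (SE), limma adjusted p = 0.0176). *Zyx*, which encodes the focal adhesion protein zyxin, was counted at 1139, 1066 and 1059 under *ovo* siRNA and 1796, 1809 and 1537 under *renilla* siRNA, also without overlap (log2 fold change -0.65 ± 0.12 (SE), limma adjusted p = 0.009). Trend-removed changes were 0.15 ± 0.082 (limma adjusted p = 0.213) for *CaMKII*, and -0.089 ± 0.09 (limma adjusted p = 0.483) for *Zyx*.

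The genes of vesicle release did not pass on the deposited scale. *unc-13*, needed to prime synaptic vesicles, was counted at 2953, 2187 and 2029 under *ovo* siRNA and 5124, 4825 and 2233 under *renilla* siRNA. *renilla* siRNA 3 lay within the *ovo* siRNA range (log2 fold change -0.69 ± 0.32 (SE), limma adjusted p = 0.151). With the trend removed *unc-13* rose (0.84 ± 0.20, limma adjusted p = 0.0151), in 4 of 6 fits without a library. 25.2% of its exonic length is shared with 3 genes on the opposite strand. *Cadps*, of dense-core vesicle release, had means of 750.1 ± 97.5 and 946 ± 219.7 (SD, n = 3, *ovo* and *renilla* siRNA) (log2 fold change -0.31 ± 0.20 (SE), limma adjusted p = 0.278) and rose with the trend removed (0.53 ± 0.099, limma adjusted p = 0.00638), in each of the 6 fits without a library. *Ank*, which encodes ankyrin, was counted at 4492, 3444 and 3133 under *ovo* siRNA and 5462, 5493 and 3091 under *renilla* siRNA, with *renilla* siRNA 3 the lowest of all libraries. It did not pass on the deposited scale (log2 fold change -0.31 ± 0.25 (SE), limma adjusted p = 0.391) and rose with the trend removed (0.44 ± 0.13, limma adjusted p = 0.0311). The rise held in 2 of 6 such fits. The calcium sensor gene *Syt7* had means of 8.65 ± 1.36 and 10.6 ± 3.71 (SD, n = 3, *ovo* and *renilla* siRNA) and passed on neither scale (log2 fold change -0.22 ± 0.40 (SE), limma adjusted p = 0.713). Its trend-removed change was 0.56 ± 0.45 (limma adjusted p = 0.374).

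Kinases, adaptors and small GTPases gave 5 falls among 7 tested genes, with a median log2 fold change of -0.55. Of all tested genes 14.1% fell. On the trend-removed scale 0 of the 7 fell and 1 rose, against 12.3% and 16.3% of all genes. *Crk*, an SH2 and SH3 adaptor gene, was counted at 1127, 1146 and 1351 under *ovo* siRNA and 1823, 1938 and 2413 under *renilla* siRNA, and the groups did not overlap (log2 fold change -0.76 ± 0.15 (SE), limma adjusted p = 0.0109). *Dyrk3*, a protein kinase gene, was counted at 1088, 985 and 883 under *ovo* siRNA and 1801, 1932 and 1309 under *renilla* siRNA, likewise apart (log2 fold change -0.76 ± 0.17 (SE), limma adjusted p = 0.0187). *PIP4K*, of phosphoinositide metabolism, was counted at 1535, 1429 and 1622 under *ovo* siRNA and 2196, 1930.2 and 2294 under *renilla* siRNA and fell by a smaller step (log2 fold change -0.48 ± 0.12 (SE), limma adjusted p = 0.0265). *Arl4* was counted at 823, 848 and 885 under *ovo* siRNA and 1163, 1237 and 1344 under *renilla* siRNA (log2 fold change -0.55 ± 0.12 (SE), limma adjusted p = 0.0137). *Slip1*, which encodes a partner of the Slowpoke potassium channel, was counted at 769, 664 and 592 under *ovo* siRNA and 1060.4, 1028 and 893 under *renilla* siRNA (log2 fold change -0.56 ± 0.14 (SE), limma adjusted p = 0.0263), and both were without overlap. In *Crk*, *PIP4K* and *Arl4*, *renilla* siRNA 3 was the highest library rather than the lowest of its group. Trend-removed changes of these 5 genes ran from -0.17 for *Crk* to 0.092 for *PIP4K*, and none passed the test there.

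*Arf102F*, an Arf family GTPase gene, did not overlap either but missed the threshold, with means of 1119.9 ± 115.2 and 1603 ± 508 (SD, n = 3, *ovo* and *renilla* siRNA) and *renilla* siRNA 3 far above its group (log2 fold change -0.48 ± 0.22 (SE), limma adjusted p = 0.142). Its trend-removed change was 0.16 ± 0.083 (limma adjusted p = 0.181). *Asator*, a gene of the tau-tubulin kinase family, passed on the second scale only. It was counted at 425, 372 and 387 under *ovo* siRNA and 486, 498 and 342 under *renilla* siRNA; *renilla* siRNA 3 was the lowest of all and the other 2 *renilla* siRNA libraries the highest (log2 fold change -0.14 ± 0.17 (SE), limma adjusted p = 0.575). With the trend removed *Asator* rose (0.96 ± 0.097, limma adjusted p = 0.000536), in each of the 6 fits without a library. It combines 36.2% GC with 9018 exonic bases.

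In the last group, genes of translation, protein turnover, DNA repair and transport, 2 of 6 fell, with a median log2 fold change of -0.49. Of all tested genes 14.1% fell. On the trend-removed scale 0 of the 6 fell and 2 rose, against 12.3% and 16.3% of all genes. *eIF4G1*, the scaffold of the cap-binding complex, was counted at 7185, 5255 and 4986 under *ovo* siRNA and 10292, 10591 and 7207 under *renilla* siRNA. The lowest *renilla* siRNA value lay just above the highest *ovo* siRNA value, and the gene passed the threshold narrowly (log2 fold change -0.69 ± 0.21 (SE), limma adjusted p = 0.0469). *Rad23*, a ubiquitin receptor gene, was counted at 2444, 2345 and 2522 under *ovo* siRNA and 3327, 3503 and 3236 under *renilla* siRNA, again without overlap (log2 fold change -0.46 ± 0.11 (SE), limma adjusted p = 0.0219). The call of *Rad23* held in 1 of the 6 fits without a library. With the trend removed *eIF4G1* was at 0.098 ± 0.10 (limma adjusted p = 0.508), and *Rad23* at -0.017 ± 0.086 (limma adjusted p = 0.903).

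*gw*, which encodes the GW182 protein of microRNA silencing, was counted at 3919.99, 3449 and 3069.7 under *ovo* siRNA and 4541, 4628 and 3126 under *renilla* siRNA, with *renilla* siRNA 3 close to the lowest *ovo* siRNA value (log2 fold change -0.22 ± 0.19 (SE), limma adjusted p = 0.411). *Gyf*, of the GIGYF family of translational repressors, was counted at 3496, 2829 and 2755 under *ovo* siRNA and 5009, 5048 and 3385 under *renilla* siRNA, where *renilla* siRNA 3 lay below the highest *ovo* siRNA value (log2 fold change -0.55 ± 0.19 (SE), limma adjusted p = 0.0696). *Thd1*, a thymine DNA glycosylase gene, was counted at 1986, 1501 and 1225 under *ovo* siRNA and 3135, 3473 and 994 under *renilla* siRNA, and its *renilla* siRNA libraries held both the highest and the lowest of the 6 values (log2 fold change -0.52 ± 0.45 (SE), limma adjusted p = 0.424). The zinc transporter gene *Zip102B* changed least, with means of 1143 ± 61.3 and 1246 ± 245 (SD, n = 3, *ovo* and *renilla* siRNA) (log2 fold change -0.11 ± 0.16 (SE), limma adjusted p = 0.644). *gw* (0.40 ± 0.087, limma adjusted p = 0.0112) and *Zip102B* (0.53 ± 0.17, limma adjusted p = 0.0466) rose with the trend removed, in 5 and 1 of the 6 fits without a library. *Gyf* (-0.088 ± 0.087, limma adjusted p = 0.479) and *Thd1* (0.79 ± 0.30, limma adjusted p = 0.082) passed on neither scale.

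Of 10 listed genes for regulators of chromosome 4 and heterochromatin, 0 passed the limma test on the deposited scale. Of all tested genes 14.1% fell and 11.8% rose in that test. 1 regulator had an unadjusted p under 0.05 (*egg*). edgeR called 0, against 15.8% of all genes lower and 13.3% higher. DESeq2 called 1 lower, against 18.9% of all genes. It was *Su(var)2-HP2*, whose product binds HP1a (log2 fold change -0.90, DESeq2 adjusted p = 0.0376). *Pof* was counted at 311, 345 and 319 under *ovo* siRNA and 345, 306 and 328 under *renilla* siRNA, overlapping throughout (log2 fold change -0.007 ± 0.13 (SE), limma adjusted p = 0.976). The gene that encodes HP1a had means of 3579 ± 429 and 3628 ± 663 (SD, n = 3, *ovo* and *renilla* siRNA) (log2 fold change -0.012 ± 0.17 (SE), limma adjusted p = 0.969). *egg* had means of 1524 ± 138 and 1050.5 ± 288 (SD, n = 3, *ovo* and *renilla* siRNA) (log2 fold change 0.57 ± 0.21 (SE), limma adjusted p = 0.0859). It and *G9a* rose on the trend-removed scale, *egg* by 0.46 (limma adjusted p = 0.0145), against 16.3% of all genes that rose there. Without *renilla* siRNA 3, 2 of the 10 rose, against 25.7% of all genes, and 3 fell, against 25.6%, on the deposited scale.

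Genes that act with the named genes in the same pathways were also counted. Of 22 tested partners, 6 fell and 1 rose, against 14.1% and 11.8% of all tested genes, with a median log2 fold change of -0.21. The semaphorin gene *Sema1a* fell (log2 fold change -0.80 ± 0.16 (SE), limma adjusted p = 0.0126). So did the TGF-β type receptor gene *babo* (log2 fold change -0.62 ± 0.18 (SE), limma adjusted p = 0.0427) and the Smad gene *Smox* (log2 fold change -0.60 ± 0.12 (SE), limma adjusted p = 0.0118), as well as *C3G*, *AGO1* and *Not1*, the last 2 partners of *gw* in microRNA silencing. *Su(fu)*, a negative regulator of *ci*, rose (log2 fold change 0.81 ± 0.14 (SE), limma adjusted p = 0.00802). With the trend removed none of these 7 genes passed (limma adjusted p from 0.0677 for *Su(fu)* to 0.507 for *C3G*), and *Sema1a* was at 0.20 and *AGO1* at -0.23. *Sema2a*, *Sema5c*, *Mical*, *arm* and *put* rose there and *pygo* fell, against 16.3% and 12.3% of all genes that rose and fell.

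Since Ovo proteins are known to bind CNGTTA in DNA, the 250 bases before the outermost annotated start of each gene were searched for CNGTTA and its reverse complement TAACNG. 13 of the 46 windows held a match (28.3%), against 33.5% of 13896 windows of protein-coding genes and 29.5% of 78 on chromosome 4. CCGTTA or its reverse complement TAACGG, which is one form of the first motif, was in 3 of 46 (6.52%) against 7.65% of all. Matches stood before 9 of the 21 genes that fell on the deposited scale, 3 of the 17 that did not pass and 1 of the 8 not tested. The same split over all genes was not made, and 1 of the 21 also fell on the trend-removed scale. A link between motif and change was thus not tested. The windows are shown for the gene that fell on both scales, *Sox102F*, for *Slip1*, the 1 other gene with a pair of matches, and for the semaphorin receptor gene *PlexA*. They are in dm6, read 5′ to 3′ on the strand of the gene and end at the base before its start, with matches in capitals.
*Sox102F* (chr4:834394-834643, minus strand): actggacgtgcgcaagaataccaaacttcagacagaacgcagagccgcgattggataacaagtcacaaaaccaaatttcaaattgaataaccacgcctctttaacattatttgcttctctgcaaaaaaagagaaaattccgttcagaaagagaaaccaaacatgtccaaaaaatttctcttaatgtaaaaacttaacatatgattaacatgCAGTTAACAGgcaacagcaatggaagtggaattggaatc
*Slip1* (chr4:663371-663620, plus strand): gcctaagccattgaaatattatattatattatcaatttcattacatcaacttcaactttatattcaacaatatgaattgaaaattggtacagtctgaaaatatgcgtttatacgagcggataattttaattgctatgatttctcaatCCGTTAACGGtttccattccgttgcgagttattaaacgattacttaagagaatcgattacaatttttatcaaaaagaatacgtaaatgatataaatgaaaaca
*PlexA* (chr4:1027102-1027351, minus strand): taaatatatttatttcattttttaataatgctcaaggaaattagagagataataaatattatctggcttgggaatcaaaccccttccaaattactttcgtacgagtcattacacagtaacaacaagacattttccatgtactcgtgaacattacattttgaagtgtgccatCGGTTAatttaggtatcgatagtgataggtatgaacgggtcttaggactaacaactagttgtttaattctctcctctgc
In *Sox102F* and in *Slip1* a match on either strand overlaps the other by 2 bases, and both matches of *Slip1* are of the CCGTTA form. The first base of a match lies 39 and 35 bases before the start in *Sox102F*, 103 and 99 in *Slip1* and 79 in *PlexA*. *Slip1* and *PlexA* lost their calls with the trend removed, and binding was not measured in these libraries.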

How the data were processed

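Polyadenylated RNA from 500 ng of total RNA was sequenced from stranded libraries. Trimming with cutadapt 1.18, alignment with STAR 2.7.3a, counting with featureCounts (Subread 1.5.3) and scaling with DESeq2 1.30.1 are credited to the submitters' processing notes, and reads were counted on the reverse strand per gene of an Ensembl BDGP6 (dm6) annotation. The authors deposited the read signal as DESeq2-normalized counts per gene, that is, counts divided by a size factor per library. Per library, 100% of values were whole reads within 0.01 once divided by the value of 1 read, and these recovered reads gave the depths. A second deposited table with the authors' own fold changes and p-values was not used.

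Genes that reached 10 normalized counts in 3 or more libraries were tested in R 4.3.3 with limma 3.58.1 (trend, two-sided, Benjamini-Hochberg over all 7893 genes, threshold 0.05) on log2(normalized count + 1), which understates changes of low genes. edgeR 4.0.16 and DESeq2 1.42.0 on recovered reads, other pseudocounts, filters and scalings, a replicate block, thinned reads, leaving out each library, and removal of the trend on exon GC content and length (natural splines with 5 degrees of freedom per library) were alternatives. The fits were tested on simulated data. Of 17807 symbols, 17019 matched the annotation by symbol and 723 by an older one; *Thd1* and *Arf102F* are older symbols. With 3 against 3 libraries an exact permutation test cannot go below p = 0.1, so none was used. Genes that passed the threshold, and the 12 with the highest mean normalized count, are given with the value in every library, the others by means or ranges. The 46 genes, the lists and the roles were chosen with earlier results of these data known.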

Additional observations from a re-analysis of the deposited data

How the results depend on the processing

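Among the 38 tested genes, the count lower was 18 to 22 under the pseudocounts of 0.5 and 5, no filter, the stricter filter, TMM scaling, quantile normalization, the robust prior, thinned reads and edgeR, and 24 with DESeq2, with 0 higher in each. Of all tested genes, 7.48% (no filter) to 15.8% (edgeR) were lower under those settings, and 18.9% with DESeq2. Centring on genes off chromosome 4, an alternative chosen after seeing the data, gave 21 and 0, against 15% and 10.5% of all genes. A check of pairing by replicate number was mixed, with same-number correlations of 0.44, -0.14 and 0.46 and the others from -0.51 to 0.43. It cannot decide whether the numbers pair the libraries, since *ovo* siRNA 1 correlated alike with *renilla* siRNA 1 (0.44) and 2 (0.43). A replicate block gave 27 lower and 0 higher, against 1503 lower and 1475 higher among all 7893 genes. Leaving out one library at a time gave 3 to 33 lower, 0 higher, 486 to 4055 calls among all genes against 2045, and a median log2 fold change of the 38 genes from -0.74 to -0.53.

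Removing the GC and length trend left 11 calls, 10 higher and 1 lower, with a median of 0.11. Among all 7868 genes, 1282 were higher and 969 lower. With a replicate block as well, 13 calls were left, 11 higher and 2 lower, against 1662 higher and 1197 lower among all genes. The cause was not tested. The log2 fold change then changed sign in 25 genes: *Asator* 0.96, *unc-13* 0.84, *Hcf* 0.82, *Thd1* 0.79, *Syt7* 0.56, *Zip102B* 0.53, *Ephrin* 0.53, *Cadps* 0.53, *Ank* 0.44, *gw* 0.40, *yellow-h* 0.32, *ci* 0.27, *Eph* 0.26, *myo* 0.19, *bt* 0.17, *Arf102F* 0.16, *pan* 0.16, *CaMKII* 0.15, *pho* 0.11, *eIF4G1* 0.098, *lgs* 0.096, *PIP4K* 0.092, *Mitf* 0.071, *Arl4* 0.060 and *Dyrk3* 0.013, with the same values under the block. *Syt7* also changed sign under quantile normalization (0.51) and thinned reads (0.067), and *Hcf* (-0.50 to 0.046) and *Zip102B* (-0.20 to 0.049) did when a library was left out. The following alternatives were chosen after seeing the data. GC alone left 5 calls, 2 higher and 3 lower (median 0.098), with 1318 calls among all genes, 627 higher and 691 lower. Length alone left 1 higher and 23 lower, with 3164 calls among all genes, 1827 higher and 1337 lower. A trend fitted without chromosome 4 genes left 11 calls, 10 higher and 1 lower (median 0.13), against 1288 higher and 972 lower among all genes. Removing the trend and leaving out one library gave, for *ovo* siRNA 1 to 3 and *renilla* siRNA 1 to 3 in turn, 4, 3, 5, 6, 6 and 12 higher and 1, 0, 0, 1, 1 and 4 lower, in all 5, 3, 5, 7, 7 and 16 calls, with medians of 0.058, 0.11, 0.14, 0.13, 0.12 and 0.070. Among all 7868 genes, 802, 452, 590, 1034, 839 and 2193 were higher and 628, 441, 570, 840, 644 and 1459 lower in these fits. At the floor of 13.1 normalized counts in *renilla* siRNA 3, depth limits what can be said of *Ekar*, *Sox102F*, *Syt7*, *dati* and the 8 untested genes. *zfh2* had 7 reads in that library.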

Other observations

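The table holds 65 other chromosome 4 genes besides the 46, and 37 of them were tested. On the deposited scale 16 fell and 1 rose, against 14.1% and 11.8% of all tested genes, with a median log2 fold change of -0.67. On the trend-removed scale 11 rose and 3 fell, against 16.3% and 12.3% of all genes, with a median of 0.21. *mGluR*, a metabotropic glutamate receptor gene, had means of 2.62 ± 1.09 under *ovo* siRNA and 17.2 ± 4.04 under *renilla* siRNA (SD, n = 3). Its log2 fold change was -2.36 ± 0.43 (SE, limma adjusted p = 0.00864) from 51 reads in all. The trend-removed value of -1.40 did not pass (limma adjusted p = 0.0749). *Kif3C*, a kinesin motor gene, had means of 379.6 ± 22.4 and 1125 ± 242 (log2 fold change -1.54 ± 0.18, limma adjusted p = 0.00231), and a trend-removed value of -0.70 (limma adjusted p = 0.00158).

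*ATPsynbeta*, which encodes a catalytic subunit of the mitochondrial ATP synthase, was the 1 gene of the chromosome that rose on the deposited scale, from 7108 ± 490.5 under *renilla* siRNA to 9941 ± 112 under *ovo* siRNA (log2 fold change 0.49 ± 0.12, limma adjusted p = 0.0274). Its exons have 43.2% GC, and its trend-removed value was 0.76 (limma adjusted p = 0.00177). *RpS3A*, a ribosomal protein gene, had means of 25967 ± 6850.3 and 22965 ± 1740.4 under *renilla* and *ovo* siRNA and did not pass (log2 fold change -0.15 ± 0.21, limma adjusted p = 0.633). These genes were picked after their values were seen.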
